A study of Mus musculus with 3 samples.

Results

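The genes described here encode feedback inhibitors of MAP kinase signaling: the dual-specificity phosphatases Dusp1, Dusp4, Dusp5 and Dusp6, the Sprouty genes Spry1, Spry2 and Spry4, and the Spred genes Spred1, Spred2 and Spred3. They were chosen by gene symbol, and each of the 10 symbols was found in the table of transcript counts, so that the members are 10 of 56748 genes. The RNAseq data came from adult cardiomyocytes (ACMs), muscle cells isolated from the hearts of wild-type (WT) mice aged 8 to 10 weeks, and were collected to find genes that oncostatin M (OSM) turns on through its receptor and JAK1. The isolated cells attached to laminin for 3 to 4 h and were then kept in serum-free M199 medium with 0.1% BSA, 10 mM BDM, which blocks contraction, and supplements of insulin, transferrin, selenium and lipid. WT ACMs received vehicle (0.1% BSA), 10 ng/mL mouse OSM or 10 ng/mL human IL-6 for 16 h. RNA was pooled within a condition, which left 1 library for each of the 3 conditions, with a depth of 24939980 counts (vehicle), 26362446 counts (IL-6) and 30773001 counts (OSM). There are no replicates, so the differences below are differences between libraries that have no replicate check, and no p-value is given.

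Growth factor receptors and receptors that contain gp130, the signaling subunit shared by OSM and IL-6, can activate Ras, Raf and MEK, which phosphorylate the MAP kinase ERK. Active ERK raises the transcription of several of its own inhibitors, and their transcript levels are therefore often used as a readout of the pathway. The phosphatases remove the phosphates from the threonine and tyrosine of the MAP kinase activation loop, while Sprouty and Spred proteins act upstream at the level of Ras and Raf. In the heart, ERK signaling is known for its part in the growth and survival of cardiomyocytes.

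The libraries were rich in cardiomyocyte transcripts. The 6 cardiomyocyte markers (Myh6, Tnnt2, Actc1, Ryr2, Pln and Tnni3) summed to 6339 fpkm with vehicle, 6571 fpkm with IL-6 and 7593 fpkm with OSM, with Actc1 the most abundant. The unit fpkm is the deposited count per kilobase of gene length, divided by a constant of the library that is close to but not equal to its depth. Ryr2 was the cardiomyocyte marker beyond 2-fold lower with OSM, at 9264 counts where the vehicle library had 22606 and the IL-6 library 23555. Its log2 fold change was -1.53, and -0.97 (-1.01 to -0.94) relative to the median of genes of like length, so that it was not beyond 2-fold over its whole interval by that alternative, which was chosen after seeing the data and is described below. The 6 endothelial markers summed to 6.56, 6.66 and 7.36 fpkm with vehicle, IL-6 and OSM (Cdh5 the most abundant), and the 6 smooth muscle and pericyte markers to 13.1, 12.9 and 15.1 fpkm (Acta2 the most abundant, with Kcnj8 at 0 with vehicle and IL-6 and Tagln at 0 with vehicle). For OSM against vehicle the log2 fold change of Acta2 was 0.22 (0.08 to 0.37). Rgs5 of the same list went the other way, from 73 to 46 counts (-0.91, -1.47 to -0.36). The 6 fibroblast markers summed to 0.622, 0.540 and 0.881 fpkm, with Dcn the most abundant, Col1a1 at 0 with IL-6, and Col1a1, Postn and Tcf21 at 0 with OSM. The 6 macrophage markers summed to 13.8, 14.3 and 39.9 fpkm. Most of that sum was Cd68 (12.0, 13.2 and 37.8 fpkm), while C1qa and Fcgr1 were at 0 in the 3 libraries and Adgre1 was at 0 with IL-6. Csf1r, next to Cd68 in counts, had 187, 166 and 209 counts, and its log2 fold change for OSM against vehicle was -0.08 (-0.37 to 0.21), while Adgre1 had 8, 0 and 6 counts (-0.66, -2.46 to 1.06). By the rule of calls described below, Cd68 was higher with OSM than with vehicle (log2 fold change 1.65, 1.49 to 1.82), Cd68 and Lyz2 were higher and Col1a2, a fibroblast marker, was lower with OSM than with IL-6, and 0 endothelial, smooth muscle or pericyte markers were called. Lyz2 rested on 13, 4 and 31 counts in the vehicle, IL-6 and OSM libraries and Col1a2 on 14, 41 and 6. Dcn, with 49, 48 and 131 counts, was not called against vehicle (1.18, 0.69 to 1.68). Relative to genes of like length Cd68 was still called against vehicle (1.18, 1.02 to 1.35) and Col1a2 against IL-6, while Cd68 (1.07, 0.91 to 1.22) and Lyz2 (2.36, 0.86 to 4.32) were not called against IL-6. In a bulk library, fewer cells of a type and less RNA per cell cannot be told apart, and the part of other cells in the values of the feedback genes was not tested. The OSM label was checked with Socs3, a known target of JAK-STAT signaling, which had 670 counts with vehicle, 646 with IL-6 and 18194 with OSM. For IL-6 against vehicle its log2 fold change was -0.15 (-0.31 to 0.01), so Socs3 showed no response to IL-6 and does not check that label.

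In vehicle-treated ACMs the feedback genes were expressed at low to moderate levels. Per length, the order was Spry2 (3.86 fpkm), Dusp5 (3.79), Dusp6 (3.60), Spred1 (2.64), Spred2 (2.32), Dusp1 (1.85), Dusp4 (1.27), Spry4 (0.806), Spred3 (0.127) and Spry1 (0.109). In this order 5 of the 9 pairs of neighbors had overlapping 95% Poisson intervals. These were Spry2 with Dusp5, Dusp5 with Dusp6, Spred1 with Spred2, Spred2 with Dusp1 and Spred3 with Spry1. Overlap of separate intervals is a rough guide, since the levels of a pair can differ beyond counting error although their intervals overlap. The 10 genes summed to 20.4 fpkm with vehicle, 21.0 fpkm with IL-6 and 61.8 fpkm with OSM. With OSM the order was Dusp6 (22.7 fpkm), Dusp5 (16.4), Spry2 (7.14), Spred1 (5.30), Dusp1 (2.78), Spred3 (2.46), Spred2 (2.36), Spry4 (1.23), Dusp4 (1.21) and Spry1 (0.173). Here 3 of the 9 neighboring pairs overlapped (Dusp1 with Spred3, Spred3 with Spred2, and Spry4 with Dusp4), and Dusp6 and Dusp5 stood apart from each other and from the rest. Levels per length rest on the gene models of the deposited table. Their lengths were 2087 bases for Spry2, 3311 for Dusp1 and 6218 for Spred3, where the canonical GENCODE transcripts have 3241, 1990 and 4326 bases.

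**Figure D1:**
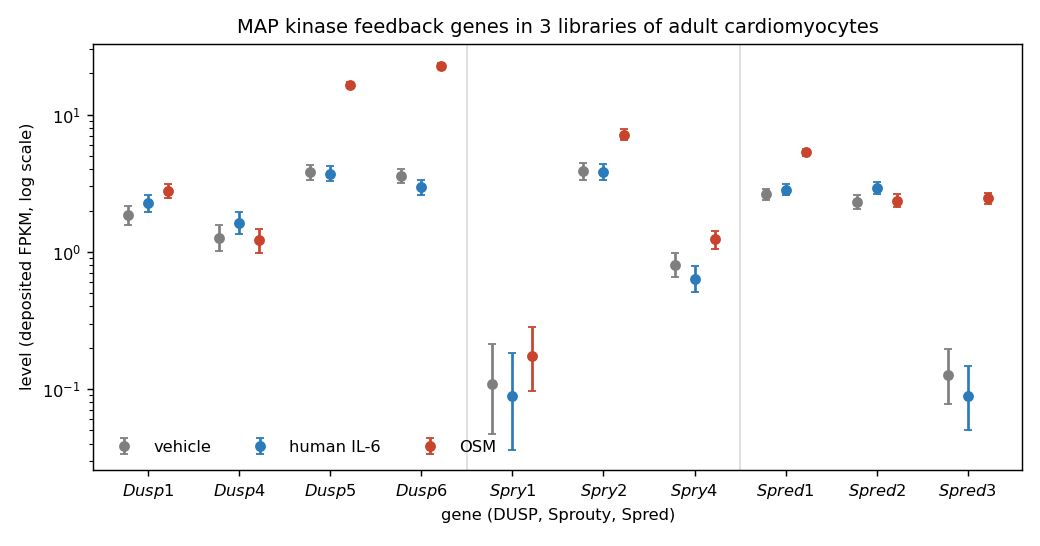
Level of the 10 feedback genes in the vehicle, human IL-6 and OSM libraries, as deposited FPKM on a log axis, with 1 library per point and bars for the 95% Poisson interval of the count. With OSM, Dusp6 (22.7 fpkm) and Dusp5 (16.4 fpkm) stand above the other 8 genes, and Spred3 moves from 0.127 fpkm with vehicle to 2.46 fpkm.

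To compare libraries, counts were scaled with TMM factors, and a 95% Clopper-Pearson interval was computed for each log2 fold change. Such an interval holds the counting error and nothing else, and amplified reads that carry no molecular identifiers do not count molecules 1 by 1. A call of higher or lower required the whole interval to lie beyond 2-fold. Genes with fewer than 10 counts in a pair of libraries were left out, and all 10 members met that minimum in each comparison. Against vehicle, 3 of the 10 members (Dusp5, Dusp6 and Spred3) were called higher with OSM and 0 were called lower. Over all 15537 genes compared, 3.74% were called higher and 5.43% lower. The median log2 fold change of the 10 members was 0.77, beside 0.00 over all compared genes. The interval lay wholly above 0 for 7 members and below 0 for 0, where 33.4% of all compared genes lay above 0 and 33.1% below. Against the IL-6 library the same 3 members were called higher with OSM and 0 lower, where 4.24% of 15544 genes were higher and 5.42% lower. In that comparison 7 members had an interval wholly above 0 and 2 (Dusp4 and Spred2) wholly below, beside 33.2% of all genes above and 33.2% below. For IL-6 against vehicle, 0 members were called higher and 0 lower, which is near the shares of 1.77% and 1.74% over 15472 genes. The 3 comparisons are not independent, since each pair of them shares a library.

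Of the 4 dual-specificity phosphatases, Dusp6 and Dusp5 were called higher with OSM and Dusp1 and Dusp4 were not called. The calls of Dusp6 and Dusp5 were lost with edgeR's exact test at an assumed coefficient of variation of 0.4, under which Spred3 was the member still called, beside 43 of all genes higher against vehicle and 57 against IL-6. Dusp6 encodes a cytoplasmic phosphatase that is selective for ERK and binds it directly. It had 285 counts (3.60 fpkm) in the vehicle library, 251 (2.96 fpkm) in the IL-6 library and 2123 (22.7 fpkm) in the OSM library. The OSM library was high and the other libraries were low. Its log2 fold change was 2.66 (95% counting interval 2.48 to 2.84) for OSM against vehicle, or 6.30-fold, and 2.94 (2.75 to 3.13) for OSM against IL-6, or 7.67-fold. Dusp5 encodes the nuclear counterpart, also selective for ERK, and had 237 counts (3.79 fpkm) in the vehicle library, 249 (3.72 fpkm) in the IL-6 library and 1215 (16.4 fpkm) in the OSM library. Again the OSM library stood apart, and the vehicle and IL-6 libraries lay within counting error of each other. The log2 fold change of Dusp5 was 2.12 (1.91 to 2.32) against vehicle, or 4.34-fold, and 2.15 (1.95 to 2.35) against IL-6. From the top of the 15537 compared genes, Dusp6 ranked 218 and Dusp5 ranked 435 by log2 fold change of OSM against vehicle.

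Dusp1 and Dusp4 encode nuclear phosphatases that act on p38 and JNK as well as ERK. Dusp1 had 155 counts (1.85 fpkm) in the vehicle library, 203 (2.26 fpkm) in the IL-6 library and 275 (2.78 fpkm) in the OSM library. Vehicle was lowest and OSM highest, with a log2 fold change of 0.59 (0.30 to 0.88) for OSM against vehicle and 0.30 (0.03 to 0.57) for OSM against IL-6. The Dusp1 gene model of the count table spans 56539 bases and overlaps Ergic1, a gene of the opposite strand with 1484, 1547 and 1637 counts in the vehicle, IL-6 and OSM libraries. Whether fragments were counted by strand is not given in the sources used here, so reads of overlapping genes cannot be told apart with certainty. Dusp4 had 88 counts (1.27 fpkm) in the vehicle library, 121 (1.63 fpkm) in the IL-6 library and 99 (1.21 fpkm) in the OSM library. IL-6 was the highest library for Dusp4, and the interval for OSM against vehicle, a log2 fold change of -0.07 (-0.50 to 0.36), held 0. Against IL-6 the log2 fold change of Dusp4 with OSM was -0.43 (-0.83 to -0.04). The share of Dusp6 in the summed fpkm of the 4 phosphatases was 34.2% with vehicle, 28.0% with IL-6 and 52.6% with OSM.

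**Figure D2:**
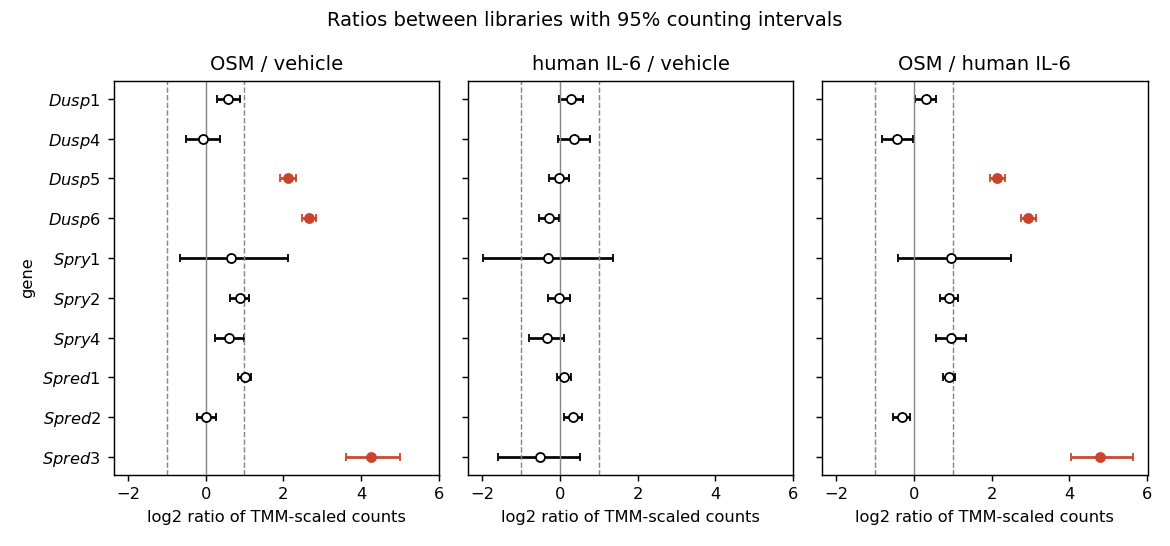
Log2 ratios of TMM-scaled counts of the 10 feedback genes for OSM against vehicle, human IL-6 against vehicle and OSM against human IL-6, with bars for the 95% counting interval and dashed lines at 2-fold. Filled red points mark genes called beyond 2-fold, which are Dusp5, Dusp6 and Spred3 in both comparisons with OSM and 0 genes for human IL-6 against vehicle.

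Promoter sequences are shown for the 3 members called higher with OSM, and for Dusp1 because it held a motif. RefSeq promoters of GRCm38.p6, from 250 bases before to 50 bases after the start site, were matched for 8 of the 10 members, and each was found 1 time in GRCm39, the build of the count table. Entries for Dusp4 and Spry4 were not used here. Both strands were searched for a GAS motif (TTCNNNGAA, bound by STAT proteins), a CRE (TGACGTCA), an AP-1 motif (TGANTCA), an ETS motif (CCGGAAG) and the CArG box, which serum response factor binds. Capitals mark the matches, which are the CArG boxes of Dusp5 and the CRE of Dusp1, and the sequences run in the direction of transcription.
Dusp5 (chr19:53517326-53517625, plus strand): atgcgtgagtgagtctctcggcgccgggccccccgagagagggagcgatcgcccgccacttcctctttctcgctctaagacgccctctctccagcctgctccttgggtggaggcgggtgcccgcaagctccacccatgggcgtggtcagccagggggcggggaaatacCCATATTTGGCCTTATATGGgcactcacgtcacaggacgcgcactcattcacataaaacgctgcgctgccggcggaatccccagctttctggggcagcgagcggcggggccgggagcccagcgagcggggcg
Dusp6 (chr10:99098843-99099142, plus strand): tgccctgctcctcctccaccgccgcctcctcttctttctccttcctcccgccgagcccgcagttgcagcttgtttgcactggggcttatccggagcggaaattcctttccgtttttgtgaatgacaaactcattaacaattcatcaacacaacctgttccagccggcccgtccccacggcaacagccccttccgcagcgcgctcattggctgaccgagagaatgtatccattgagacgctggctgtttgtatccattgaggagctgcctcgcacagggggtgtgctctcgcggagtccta
Spred3 (chr7:28868023-28868322, minus strand): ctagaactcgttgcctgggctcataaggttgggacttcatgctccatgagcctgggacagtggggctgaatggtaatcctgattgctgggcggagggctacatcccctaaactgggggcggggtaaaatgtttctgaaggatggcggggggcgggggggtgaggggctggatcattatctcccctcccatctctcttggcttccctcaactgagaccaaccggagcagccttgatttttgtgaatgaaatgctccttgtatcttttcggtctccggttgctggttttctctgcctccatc
Dusp1 (chr17:26727397-26727696, minus strand): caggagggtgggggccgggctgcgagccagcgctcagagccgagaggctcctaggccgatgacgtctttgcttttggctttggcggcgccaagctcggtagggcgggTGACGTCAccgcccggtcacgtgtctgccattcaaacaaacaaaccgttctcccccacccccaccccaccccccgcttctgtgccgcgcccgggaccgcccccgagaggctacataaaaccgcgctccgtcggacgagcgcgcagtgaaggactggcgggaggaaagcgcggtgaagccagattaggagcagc

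The Dusp5 window held a pair of CArG boxes side by side, at 82 to 73 and 72 to 63 bases before the start site, without overlap. A CArG box was found in 1.63% of the 32851 promoters of the table. The Dusp1 window held a CRE 143 to 136 bases before the start site, a motif found in 1.79% of all promoters. The other 3 motifs were found in 8.30% (GAS), 7.81% (AP-1) and 8.86% (ETS) of all promoters and in 0 of the 8 members, which says only that these letters are not in these windows. The windows of Dusp6 and Spred3 held none of the 5 motifs. These matches are a description of the sequence, and binding was not measured. In GRCm39 the start site of Dusp5 lies 36 bases inside the deposited gene model (chr19:53517540-53530862), whose canonical transcript has 4 exons, and the whole window lies within Gm50394, a lncRNA gene of the opposite strand with 0, 0 and 6 counts with vehicle, IL-6 and OSM. That of Dusp6 is the first base of its model (chr10:99099093-99103351) and lies 25 bases inside its canonical transcript, which has 3 exons. The Spred3 start site is that of the canonical transcript, with 6 exons, and lies 1764 bases inside the deposited model (chr7:28858254-28869836). That of Dusp1 lies 53656 bases inside its deposited model, farther than for the other 3 windows shown. GC content was 66.7% for the Dusp5 window, 57.3% for Dusp6, 55.0% for Spred3 and 67.0% for Dusp1, beside a median of 52.7% over all promoters.

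None of the 3 Sprouty genes was called in any of the 3 comparisons. For OSM against vehicle, 3.74% of all genes were called higher and 5.43% lower. At such shares, 0 calls among 3 genes say little about the family. Sprouty proteins bind adaptors and Raf and restrain the activation of ERK by receptor tyrosine kinases. Spry2, the most abundant of the 3, had 204 counts (3.86 fpkm) in the vehicle library, 216 (3.82 fpkm) in the IL-6 library and 445 (7.14 fpkm) in the OSM library. The OSM library was the high one, and the log2 fold change was 0.88 (0.64 to 1.13) against vehicle and 0.90 (0.66 to 1.14) against IL-6, with intervals above 0 that crossed 2-fold. Spry4 had 97 counts (0.806 fpkm) in the vehicle library, 82 (0.636 fpkm) in the IL-6 library and 175 (1.23 fpkm) in the OSM library. Its values were again highest with OSM, with a log2 fold change of 0.61 (0.24 to 0.98) against vehicle and 0.95 (0.57 to 1.35) against IL-6. Spry1 had few counts in each library, with 8 counts with vehicle, 7 with IL-6 and 15 with OSM. A difference in Spry1 was not detectable at this depth, since its log2 fold change of 0.67 for OSM against vehicle had an interval from -0.66 to 2.11. The summed level of the Sprouty genes was 4.78 fpkm with vehicle, 4.54 fpkm with IL-6 and 8.54 fpkm with OSM.

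Spred proteins inhibit Ras at the membrane, and Spred1 is known to bring the Ras GTPase-activating protein neurofibromin there. Spred3, whose product lacks a functional KIT-binding domain, had 20 counts (0.127 fpkm) in the vehicle library, 15 (0.0890 fpkm) in the IL-6 library and 456 (2.46 fpkm) in the OSM library. It was low in the vehicle and IL-6 libraries, and with OSM it reached the level of Spred2. The log2 fold change of Spred3 was 4.27 (3.63 to 4.99) against vehicle, or 19.3-fold (12.3 to 31.9), the largest of the 10 members by TMM-scaled counts (not on the FPKM scale with a pseudocount of 1, where it was 1.62, below 2.37 for Dusp6 and 1.87 for Dusp5) and rank 27 from the top of the 15537 compared genes. Against IL-6 it was 4.78 (4.05 to 5.63), or 27.6-fold. Spred3 overlaps Ggn, a gene of the opposite strand with 2, 3 and 11 counts in the vehicle, IL-6 and OSM libraries, and the part of shared reads in the value of Spred3 was not tested. Spred1 had 453 counts (2.64 fpkm) in the vehicle library, 523 (2.84 fpkm) in the IL-6 library and 1074 (5.30 fpkm) in the OSM library. Its OSM library was the high one, and the log2 fold change of 1.00 (0.84 to 1.17), or 2.01-fold, reached 2-fold as a point estimate but not over its whole interval. Spred2 had 271 counts (2.32 fpkm) in the vehicle library, 366 (2.92 fpkm) in the IL-6 library and 325 (2.36 fpkm) in the OSM library. Here IL-6 was the highest library, and the log2 fold change of OSM against vehicle, 0.02 (-0.22 to 0.26), held 0. Spred3 made up 2.50% of the summed Spred fpkm with vehicle, 1.52% with IL-6 and 24.3% with OSM.

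In IL-6-treated ACMs the members lay close to vehicle. Their log2 fold changes ran from -0.51 (Spred3, interval -1.58 to 0.52) to 0.36 (Dusp4, -0.05 to 0.77), with a median of -0.02, and 8 of the 10 intervals held 0. The interval lay above 0 for Spred2, at a log2 fold change of 0.33 (0.10 to 0.57), and below 0 for Dusp6, at -0.28 (-0.53 to -0.03), where 19.6% of all compared genes lay above 0 and 19.1% below. Both differences were within 2-fold. Set side by side, the values for OSM and for IL-6 against the same vehicle library were 2.66 and -0.28 for Dusp6, 2.12 and -0.03 for Dusp5, and 4.27 and -0.51 for Spred3. The summed level of the phosphatases was 10.5 fpkm with vehicle, 10.6 fpkm with IL-6 and 43.1 fpkm with OSM, and that of the Spred genes was 5.09, 5.86 and 10.1 fpkm.

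Gene length moved with the comparison of OSM and vehicle. Longer genes had lower log2 fold changes among 9445 protein-coding genes with a mean of at least 100 counts (Spearman's rho was -0.52, across genes that are not independent replicates), from a median of 0.47 in the shortest eighth of genes to -0.56 in the longest. For IL-6 against vehicle rho was -0.07 over 9361 genes. Spry2 lies in the shortest eighth by its deposited length of 2087 bases, and its log2 fold change of 0.88 was 0.41 above the median of that eighth. Its canonical transcript of 3241 bases would fall in the eighth from 3002 to 3822 bases, with a median of 0.16. Canonical lengths of Dusp1, Dusp6, Spred2 and Spred3 also fall in other eighths than the deposited ones. Dusp5 and Dusp6 lay 1.85 and 2.50 above the medians of their eighths (0.26 and 0.16). Spred1 and Spred3 belong to an eighth of longer genes with a median of -0.13, and lay 1.13 and 4.40 above it. Relative to the medians of their eighths, Dusp1 was at 0.43, Spry1 at 0.40 and Spry4 at 0.66. Dusp4 and Spred2 lay below theirs, at -0.34 and -0.04. With these medians taken away, Dusp5, Dusp6 and Spred3 were the members called higher, as before, beside 502 of all 15537 genes (3.23%), and the median of the 10 members was 0.54 in place of 0.77. The source of the length trend was not tested.

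**Figure D3:**
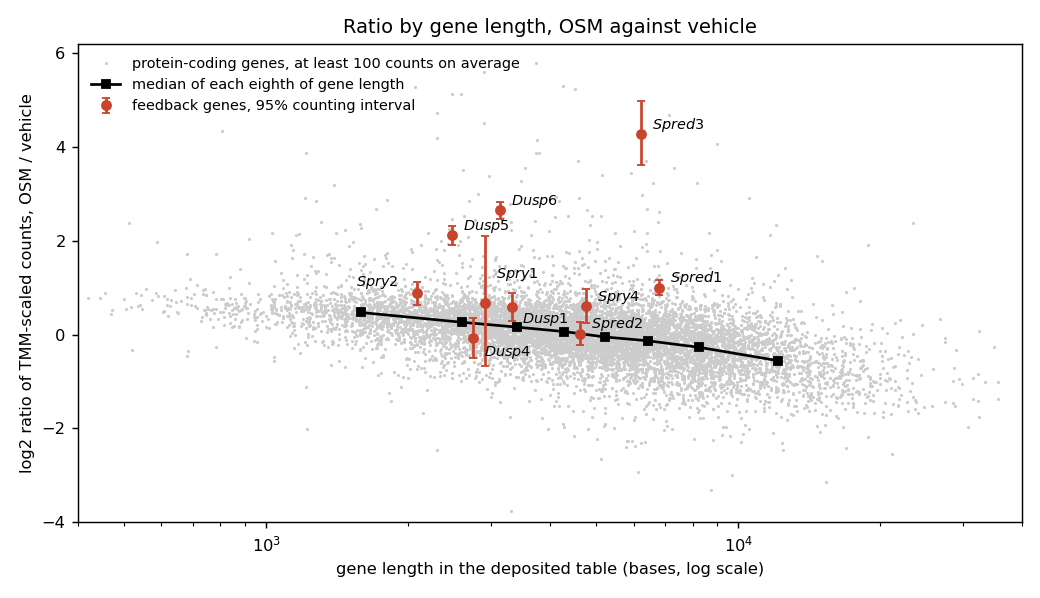
Log2 ratio of OSM to vehicle against gene length (log axis) for protein-coding genes with a mean of at least 100 counts (gray), the median of each eighth of gene length (black squares) and the 10 feedback genes with 95% counting intervals (red). The gray genes drift down with length (rho -0.52), and 18 genes fall outside the axes. Dusp5, Dusp6, Spred1 and Spred3 lie above the median of genes of like length, while Dusp4 and Spred2 lie below it.

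The other genes of the pathway were compared in lists. Of 6 further typical dual-specificity phosphatases, 0 were called higher (beside 3.74% of all genes) and 0 lower (beside 5.43%) for OSM against vehicle. At such shares, 0 calls among 6 genes say little about the list. Its median log2 fold change was 0.23. Dusp8, the most abundant of them with 13.9 fpkm with vehicle, had 1714 counts with vehicle, 1849 with IL-6 and 1607 with OSM. The relatives of Dusp6 in this list, Dusp7 and Dusp9, were chosen for mention with their values already seen. Dusp7 had 589, 596 and 1078 counts with vehicle, IL-6 and OSM, and Dusp9 had 2, 2 and 16. Their log2 fold changes for OSM against vehicle were 0.63 (0.48 to 0.78) and 2.76 (0.67 to 5.92). Dusp16 of the same list went the other way, from 1196 counts with vehicle to 921 with OSM (-0.62, -0.74 to -0.49). Of 19 other brakes on receptor tyrosine kinase and Ras-ERK signaling, 18 were compared for OSM against vehicle. Of these, 0 were higher (beside 3.74% of all genes) and 1 was lower (5.56%, beside 5.43%), with a median of 0.06. The lower gene was Dok2, an adaptor mainly known from blood cells, which had 20 counts with vehicle, 0 with IL-6 and 0 with OSM, at least 7.88-fold lower with OSM and at least 7.14-fold lower with IL-6 against a floor of 3 counts per library. Counting intervals of these log2 fold changes ended at -2.55 and -2.40, nearer to 0 than the values against the floor, -2.98 and -2.84. With the length medians taken away, an alternative chosen for the lists after seeing the data, Dok2 was still called lower and Cblb, a ubiquitin ligase with 212, 316 and 456 counts, was called higher. Pebp1, an inhibitor of Raf and the most abundant gene of that list, had 171 fpkm with vehicle, 138 with IL-6 and 241 with OSM.

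The calls in the cascade from receptor adaptors to ERK were near the shares over all genes. Of its 28 genes, 2 were called lower (7.14%, beside 5.43% of all genes) and 0 higher (beside 3.74%) for OSM against vehicle, and the median log2 fold change was -0.18. Sos1, a guanine nucleotide exchange factor for Ras, had 1302 counts with vehicle, 1349 with IL-6 and 688 with OSM, and the adaptor Gab1 had 1225, 1372 and 646. Both calls were lost with the length medians taken away, which left log2 fold changes of -0.61 for Sos1 and -1.11 (-1.25 to -0.97) for Gab1, the latter still beyond 2-fold as a point estimate. Against IL-6 the genes called lower were Gab1 and Frs2, an adaptor of fibroblast growth factor receptors with 939, 1184 and 522 counts, and with the length medians taken away Gab1 was still called (-1.19, -1.33 to -1.06), while Frs2, at -1.04 (-1.19 to -0.89), stayed beyond 2-fold as a point estimate but not over its whole interval. The most abundant gene of the cascade with vehicle was Mknk2, a kinase downstream of ERK, at 82.5 fpkm. Among the p38, JNK and ERK5 kinases, 21 of 22 genes were compared. Of these, 2 were higher (9.52%, beside 3.74% of all genes) and 0 lower (beside 5.43%), with a median of -0.21. Mapk11, which encodes the beta isoform of p38, rose from 10 counts with vehicle to 151 with OSM, beside 13 with IL-6, and its log2 fold change was 3.67 (2.76 to 4.76). Map3k8, which encodes a kinase that activates MEK, rose from 60 to 207 counts, beside 61 with IL-6. Because MEK phosphorylates ERK, Map3k8 could also be listed with the cascade to ERK, where 0 genes were called higher. Mapkapk2, a target of p38 and the most abundant gene of that list, had 129 fpkm with vehicle, 127 with IL-6 and 248 with OSM.

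Transcripts known to follow ERK activity, apart from the feedback genes, were the list with the most calls for OSM against vehicle. This list was chosen with earlier results of these data known, so its share of calls is a description. ERK activity was not measured. Of 18 genes, 17 were compared for OSM against vehicle, with 9 higher (52.9%, beside 3.74% of all genes), 1 lower (5.88%, beside 5.43%) and a median log2 fold change of 1.48, beside 0.77 for the 10 feedback genes. The higher genes were Phlda1, Ier2, Ier3, Etv4, Fosl1, Fosb, Junb, Fos and Egr1, of which Phlda1 rose from 1574 counts with vehicle to 8388 with OSM, and its log2 fold change was 2.17 (2.09 to 2.25). Junb rose from 2461 counts to 8713. Ier3, the most abundant with vehicle, had 71.2 fpkm with vehicle, 71.4 with IL-6 and 266 with OSM. Etv4, an ETS factor that ERK signaling induces, had 0 counts with vehicle, 0 with IL-6 and 12 with OSM, at least 3.38-fold higher than with vehicle against the floor of 3 counts, where the counting interval of its log2 fold change began at 1.23. Epha4, a receptor tyrosine kinase of the ephrin system, fell from 299 to 76 counts, beside 296 with IL-6. Among the 7 compared genes not called, Ccnd1 went from 213 to 121 counts (-1.06, -1.39 to -0.73). Etv1 went from 58 to 34 (-1.01, -1.67 to -0.38). Myc, Etv5, Fosl2 and Epha2 had intervals wholly above 0, at log2 fold changes of 0.55, 0.45, 0.41 and 0.99, and that of Egr2 held 0. Against IL-6, 8 genes of the list were higher with OSM and 1 was lower, beside 4.24% and 5.42% of all genes. With the length medians taken away, 8 of the 9 higher genes were still called against vehicle (without Fosl1) and 6 of the 8 against IL-6 (without Fosl1 and Fos). The values of the genes that were no longer called were 1.28 (0.91 to 1.67) for Fosl1 against vehicle, and 0.91 (0.58 to 1.25) for Fosl1 and 1.08 (0.92 to 1.23) for Fos against IL-6. For IL-6 against vehicle, 0 genes were called in any of these lists except Dok2, beside 1.77% of all genes higher and 1.74% lower.

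**Figure D4:**
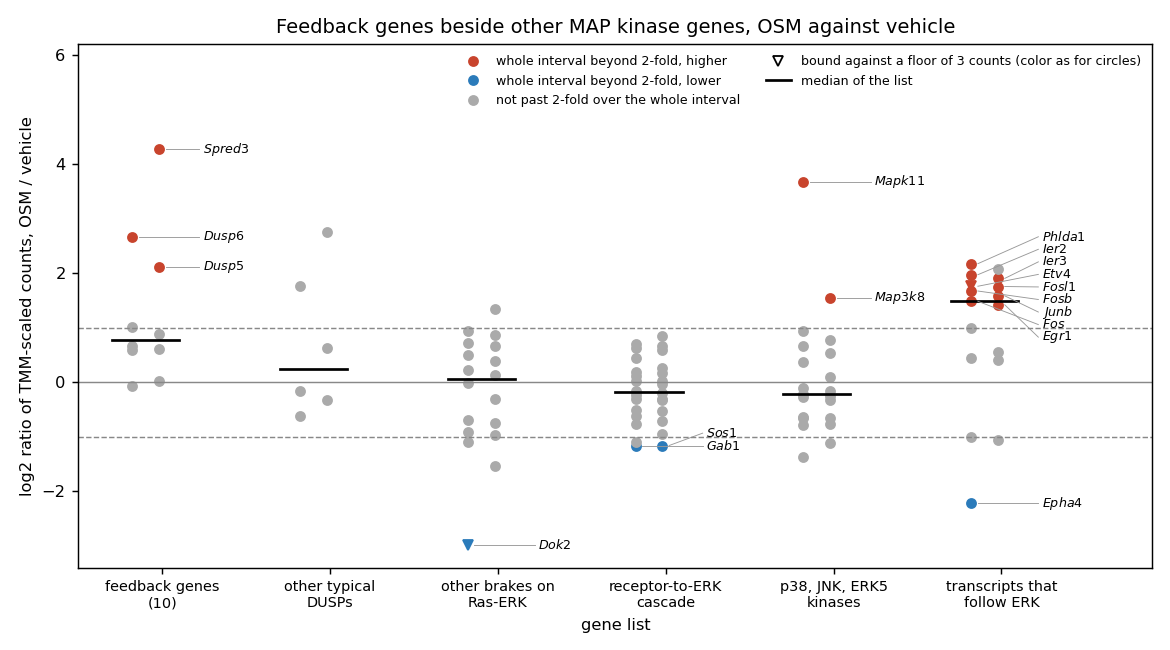
Log2 ratio of TMM-scaled counts for OSM against vehicle in the 10 feedback genes and 5 lists of MAP kinase genes, with 1 point per compared gene, black lines at the median of each list and dashed lines at 2-fold. Red and blue points were called higher and lower, triangles are bounds against a floor of 3 counts, and the calls lie mainly among the feedback genes (3 of 10) and the transcripts that follow ERK (9 higher and 1 lower of 17).

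The genes whose values lay nearest to those of Spred3 were sought among 10698 protein-coding genes with at least 100 counts over the 3 libraries and counts in each of them, by distance in the plane of the log2 fold changes of OSM and of IL-6 against vehicle. The nearest 5 were Sprr1a, Rnf122, S100a10, Serpinb1a and Anxa2, at distances from 0.11 to 0.44. The counting intervals of Spred3 itself, 3.63 to 4.99 for OSM and -1.58 to 0.52 for IL-6, are wider than these distances. Their order is therefore not resolved. Sprr1a had 68 counts with vehicle, 48 with IL-6 and 1623 with OSM, and Rnf122 had 161, 137 and 3193. That all 5 were higher with OSM than in the vehicle and IL-6 libraries follows from this selection. Each had more counts than Spred3 in every library.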

How the data were processed

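Poly(A) RNA was sequenced as paired reads and mapped to GRCm39 (mm39), and fragments were assigned to genes with featureCounts. The submitters' processing notes name fastp, HISAT2 2.2.1, featureCounts 2.0.6 and edgeR 4.0.16. The paper names other versions of featureCounts and edgeR. The authors deposited whole-number counts per gene without normalization. The deposited FPKM values are these counts divided by gene length and by 1 constant per library (vehicle 25296726, IL-6 27098375, OSM 29867031). Whether fragments were counted by strand is not given in the sources used here. Groups were taken from the sample labels, and 0 columns of sample values were left unmatched.

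TMM factors were computed for each pair of libraries with edgeR 4.0.16 in R 4.3.3, and intervals with SciPy 1.17.1 in Python 3.11.15. Genes with at least 10 counts over a pair were compared, and a gene was called where its whole 95% Clopper-Pearson interval lay beyond 2-fold. A count of 0 was replaced by a floor of 3 counts, and the fold is then a bound. This floor equals 0.120 CPM (vehicle), 0.114 CPM (IL-6) or 0.0975 CPM (OSM). No test across replicates was possible with 1 library per condition. The calling steps were tested on simulated data with known fold changes. These simulated counts held Poisson error only, so that test does not cover variation between cultures or from amplification. Alternatives were DESeq2 1.42.0 size factors, total counts, no count minimum, a 1.5-fold threshold, point estimates, edgeR's exact test with assumed coefficients of variation, removal of the length trend, a prior count and FPKM with pseudocounts.

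Exons and transcripts came from GENCODE M39, which held 56017 of the 56748 gene identifiers. Promoters are from RefSeq. The genes named are the 10 members, called genes of the lists, the most abundant gene of each list with vehicle, Socs3, cell type markers, genes that overlap a member, and the 5 protein-coding genes nearest to the member with the largest absolute log2 fold change. Dusp7, Dusp9, Dusp16, Cblb and the compared genes not called among the transcripts that follow ERK were added with their values seen. Spry3 of the list of other brakes had no row in the count table. The members and lists were chosen with earlier results of these data known.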

Additional observations from a re-analysis of the deposited data

How the results depend on the processing

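The members called did not differ from those of the main rule with DESeq2 size factors, total counts, no count minimum, removal of the length trend or edgeR's exact test with an assumed coefficient of variation of 0.2. These were Dusp5, Dusp6 and Spred3, higher with OSM in both comparisons. With a 1.5-fold threshold, 5 members were higher with OSM against vehicle and 5 against IL-6, Spry2 and Spred1 being added, beside 1357 and 1365 of all compared genes. With an assumed coefficient of 0.4, 1 member was higher against vehicle and 1 against IL-6, in each case Spred3, beside 43 and 57 of all genes. Point estimates beyond 2-fold gave 4 members against vehicle, with Spred1 added, beside 1565 of all genes (10.1%), and 3 against IL-6, beside 1557. Removing the length trend from the other lists and the markers was chosen after seeing the data. No alternative called a member lower or called a member for IL-6 against vehicle. Among 30 log2 fold changes (10 members in 3 comparisons), 9 moved beyond their counting interval with FPKM and a pseudocount of 1, 2 with a pseudocount of 0.1 and 4 with the length trend removed, and none of these changed sign. Sign changes within the counting interval were those of Spred2 for OSM against vehicle, from 0.02 to -0.04 with total counts and -0.04 with the length trend removed, and of Spry2 for IL-6 against vehicle, from -0.02 to 0.0024 with total counts. For Spred3 against vehicle the values were 1.62 and 3.49 with the pseudocounts of 1 and 0.1, in place of 4.27, because a pseudocount pulls low levels together. With the pseudocount of 1, Spred3 was below Dusp6 (2.37 against vehicle, 2.58 against IL-6) and Dusp5 (1.87 and 1.89), at 1.67 against IL-6. Depth limits Spry1 most, with 8, 7 and 15 counts, and counting intervals leave out variation between cultures.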
